A study of Mus musculus with 2 samples.

Results

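The genes described were the MHC class I heavy chain genes H2-K1, H2-D1, H2-Q4 and H2-T23, their light chain B2m, the class II chain genes H2-Aa, H2-Ab1 and H2-Eb1, the invariant chain Cd74 and the class II transactivator Ciita. They were chosen by name, 10 of the 31054 features listed for each library, and all 10 were found. The RNA came from hepatic stellate cell (HSC) preparations, made from liver by pronase and collagenase digestion and a Nycodenz density gradient. There were 2 single-cell libraries, 1 per genotype. The p16-Alb-LRTD mice carried p16-CreERT2, Alb-DreERT2 and the reporter allele R26-CAG-LSL-RSR-tdTomato-2A-DTR. The control p16-LRTD mice carried p16-CreERT2 and the same reporter allele, without Alb-DreERT2. Both were male, on a C57BL/6 background, and received carbon tetrachloride (CCl4), tamoxifen and diphtheria toxin. The study describes this schedule for 2 and for 4 weeks and does not state which applied to the stellate cell preparations. It states that p16-Alb-LRTD mice were heterozygous. Alb-DreERT2 puts the Dre recombinase under the hepatocyte albumin gene, and the allele was designed so that the diphtheria toxin receptor is expressed where both recombinases have acted, in hepatocytes with high p16 expression. The study names incomplete silencing of the receptor by the loxP stop cassette as a possible limit of mice with Alb-DreERT2. The control mice lack Dre, and by this design their cells should not express the receptor. Neither the ages of the mice nor their number per library are given in the sources used here. No test of genotype could be made on single libraries, and each difference is one between 2 libraries. Pairs of values are given in the order p16-LRTD, p16-Alb-LRTD throughout.

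MHC class I molecules present peptides from inside the cell to CD8+ T cells and are made by nearly all nucleated cells. Class II molecules present peptides from taken-up material to CD4+ T cells and are made mainly by dendritic cells, B cells and macrophages, among them the Kupffer cells of the liver. NLRC5 and CIITA are the related transactivators of the class I and class II genes, and interferon-gamma induces both sets.

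Most of the genes lie in the MHC on mouse chromosome 17 (GRCm38). H2-K1 is at chr17:33996017-34000347 and H2-T23 at chr17:36029773-36032855, both on the minus strand. H2-D1 (chr17:35262730-35267499) and H2-Q4 (chr17:35379617-35385290) are on the plus strand. The class II chain genes lie close together, H2-Ab1 at chr17:34257689-34269419, H2-Aa at chr17:34282744-34287823 and H2-Eb1 at chr17:34305867-34316674. B2m is outside the MHC at chr2:122147686-122153083, and Ciita is at chr16:10480059-10528418. Promoter sequences from RefSeq (GRCm38.p6) were found for 7 of the 10 genes. The 250 bases before the start of transcription are shown for 5 of them, because the class I genes differed in the size of their ratio between the libraries and because a class II promoter shares their layout. Capitals mark 3 short motifs on either strand, namely a form of the interferon-response core, TTTCNNTTC, the X2 box core TGACG and the Y box core ATTGG.
H2-K1 (chr17:34000348-34000597, minus strand): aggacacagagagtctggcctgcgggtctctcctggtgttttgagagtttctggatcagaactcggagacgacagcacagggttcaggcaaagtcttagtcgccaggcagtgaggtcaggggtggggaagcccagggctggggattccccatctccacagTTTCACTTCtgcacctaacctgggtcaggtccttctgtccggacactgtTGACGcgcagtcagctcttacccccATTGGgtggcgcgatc
H2-Q4 (chr17:35379367-35379616, plus strand): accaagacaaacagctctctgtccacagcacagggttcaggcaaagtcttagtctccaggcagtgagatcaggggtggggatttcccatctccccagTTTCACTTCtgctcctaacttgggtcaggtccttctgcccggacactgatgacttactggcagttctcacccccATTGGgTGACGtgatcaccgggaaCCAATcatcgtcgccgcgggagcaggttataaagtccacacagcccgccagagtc
B2m (chr2:122147437-122147686, plus strand): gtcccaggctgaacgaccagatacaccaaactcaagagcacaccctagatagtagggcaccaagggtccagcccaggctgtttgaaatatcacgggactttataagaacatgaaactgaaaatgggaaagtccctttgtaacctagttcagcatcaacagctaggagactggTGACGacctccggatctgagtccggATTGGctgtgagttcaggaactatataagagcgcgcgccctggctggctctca
H2-Aa (chr17:34287824-34288073, minus strand): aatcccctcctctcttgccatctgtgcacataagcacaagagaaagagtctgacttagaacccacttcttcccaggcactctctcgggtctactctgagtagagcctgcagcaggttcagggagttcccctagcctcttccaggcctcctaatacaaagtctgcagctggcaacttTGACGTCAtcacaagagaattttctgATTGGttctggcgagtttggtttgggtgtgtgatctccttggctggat
H2-Eb1 (chr17:34305617-34305866, plus strand): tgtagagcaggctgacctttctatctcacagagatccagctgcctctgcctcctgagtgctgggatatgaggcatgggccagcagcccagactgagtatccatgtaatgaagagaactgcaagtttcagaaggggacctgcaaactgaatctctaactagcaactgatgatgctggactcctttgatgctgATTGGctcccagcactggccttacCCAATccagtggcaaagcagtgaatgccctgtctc
The H2-K1 window, 1 of 2 listed for the gene, held all 3 motifs. TGACG and ATTGG stood 20 bases apart in H2-K1 and B2m and 21 bases apart in H2-Aa, where TGACG overlaps its own reverse complement. H2-D1 also held all 3 motifs with the 20-base spacing. H2-Q4 held all 3 motifs too but not the spaced pair. H2-T23, whose sequence is not shown, held ATTGG alone of the 3 motifs, and H2-Eb1 held ATTGG in both orientations. Among 32851 promoter windows of the same length, 6.31% held TTTCNNTTC, 17.8% TGACG, 33.9% ATTGG, and 0.247% the pair with a gap of 18 to 22 bases. These matches describe letters only.

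The libraries held 11149 and 8806 barcodes and 193746596 and 162219167 UMIs in p16-LRTD and p16-Alb-LRTD, of which 9004 and 7416 barcodes were kept. They shared 95 barcode sequences, 1.08% of the smaller library. Stellate cells were barcodes with at least 15 UMIs per 10000 of Lrat, Ecm1, Hgf and Reln, endothelial cells those with at least 8 of Kdr, Stab2 and Ptprb, and Kupffer cells those with at least 8 of Clec4f, Cd5l, Vsig4 and Csf1r. This gave 7852 and 6621 stellate, 430 and 283 endothelial and 283 and 178 Kupffer cells, with barcodes of several gates left out. Few cells lay near a threshold, with 25 and 16 stellate, 3 and 3 endothelial and 8 and 2 Kupffer cells within 20% above it. Markers that the gates did not use were read as UMIs per 1000000 UMIs of the class (CPM). The stellate list was at 26599 and 29364 CPM in stellate cells and at most 537.3 CPM in the other classes. The endothelial list was at 7862 and 6802 CPM in endothelial cells and the Kupffer list at 15481 and 17437 CPM in Kupffer cells, so each class held the markers of its label. Median depth was 17024 and 18136 UMIs in stellate, 11781 and 11992 in endothelial and 19514 and 25102 in Kupffer cells. A list of 9 immediate-early and heat-shock genes was higher in p16-Alb-LRTD in each class, at 5545 and 8602 CPM in stellate, 2896 and 5247 in endothelial and 3203 and 4270 in Kupffer cells. Its part in the results below was not tested.

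Class I RNA was higher in p16-Alb-LRTD in each cell class, by a small margin in stellate cells and a larger one in endothelial cells. Summed over the 5 genes it was 8011 and 8899 CPM in stellate cells, a ratio of 1.111 (95% interval 1.108 to 1.114). In endothelial cells the sum was 3653 and 4629 CPM, a ratio of 1.27 (1.24 to 1.29). In Kupffer cells it was 4509 and 5271 CPM, a ratio of 1.17 (1.15 to 1.19). Intervals here and below are exact and cover counting error only, not the spread between cells, mice or preparations. The ratio was above 1 for all 5 genes in all 3 classes, while it was above 1 for 39.3% of all genes tested in stellate, 39.7% in endothelial and 42.4% in Kupffer cells. The median log2 ratio of all genes tested was -0.05 in stellate, -0.10 in endothelial and -0.06 in Kupffer cells, so the class I genes lay further from the median gene than from 1.

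**Figure D1:**
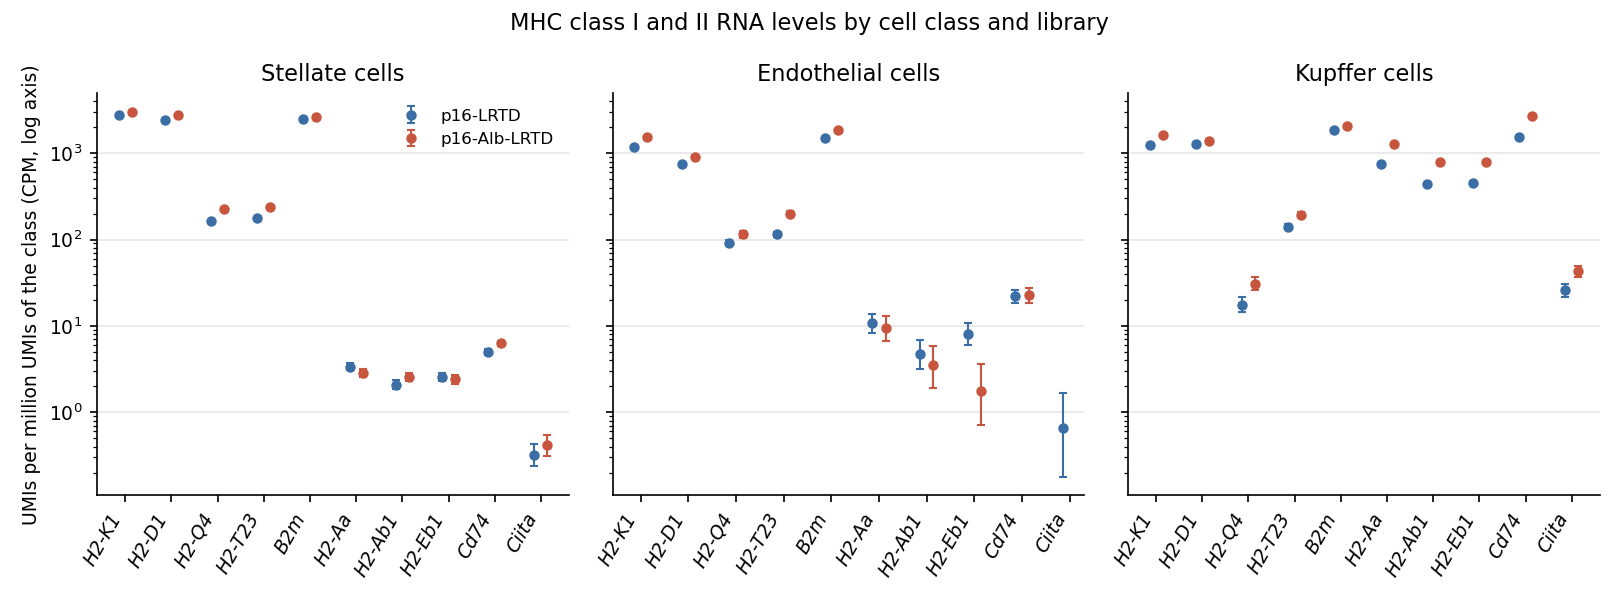
Level of each MHC gene in CPM (log axis) for stellate, endothelial and Kupffer cells, with 1 point per library and exact 95% Poisson intervals. H2-K1, H2-D1 and B2m were at 741.6 CPM or more in all 3 classes, and the class II chains and Cd74 were higher in Kupffer than in the other cells, with H2-Aa at 746 and 1268 CPM. Ciita in p16-Alb-LRTD endothelial cells had 0 UMIs and is not drawn.

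H2-K1, a classical heavy chain gene, was at 2774 and 3010 CPM in stellate cells, a ratio of 1.09. It was at 1188 and 1551 CPM in endothelial cells (1.30, 1.26 to 1.35) and at 1237 and 1620 CPM in Kupffer cells (1.31, 1.27 to 1.35). Its level was thus highest in stellate cells of both libraries, and its endothelial and Kupffer levels overlapped in their intervals in both libraries. H2-D1, the other classical heavy chain gene, was at 2422 and 2769 CPM in stellate cells (1.14), 741.6 and 911.8 CPM in endothelial cells (1.23, 1.18 to 1.29) and 1271 and 1375 CPM in Kupffer cells (1.08, 1.05 to 1.12). B2m, the light chain without which class I molecules do not reach the cell surface, was at 2472 and 2654 CPM in stellate cells (1.07), 1517 and 1851 CPM in endothelial cells (1.22, 1.18 to 1.26) and 1843 and 2050 CPM in Kupffer cells (1.11, 1.08 to 1.14). For these 3 genes p16-Alb-LRTD was the higher library in each class, and none passed 1.5-fold. In the Kupffer cells left after those with 2 or more UMIs per 10000 of another gate's genes were removed, the log2 ratio of H2-D1 went from 0.11 to 0.011 (-0.065 to 0.087) and that of B2m from 0.15 to 0.055 (-0.0080 to 0.12), with intervals that include 0, while that of H2-K1 was 0.37.

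In stellate cells the non-classical genes differed more than these. H2-T23 encodes Qa-1, which presents peptides to NKG2 receptors. It was at 179.5 and 238.0 CPM in stellate cells, a ratio of 1.33 (1.30 to 1.35), and at 141.0 and 194.3 CPM in Kupffer cells (1.38, 1.25 to 1.52). Its Kupffer log2 ratio went from 0.46 to 0.076 (-0.14 to 0.29) without cells that held another gate's genes at that level. In endothelial cells it was at 114.6 and 199.8 CPM, a ratio of 1.75 (1.57 to 1.93), and it was the only one of the 7 endothelial members with at least 5 CPM on average to pass 1.5-fold. Of all 9858 genes at that level in endothelial cells, 6.44% were over 1.5-fold higher. H2-Q4, a gene of the Qa region, was at 164.5 and 228.2 CPM in stellate cells (1.39, 1.36 to 1.41), where no member passed 1.5-fold in either direction, while 3.03% of all genes were over 1.5-fold higher and 3.05% lower. It was at 91.6 and 115.5 CPM in endothelial cells (1.26, 1.11 to 1.43), a ratio between those of H2-D1 and H2-K1 there. In Kupffer cells H2-Q4 rested on 105 and 138 UMIs, at 17.7 and 30.9 CPM, and was 1.75-fold higher (1.34 to 2.27). That ratio was lost, at a log2 of -0.0019, when barcodes passing several gates were included, and it was 0.33 (-0.16 to 0.82) on the log2 scale in cells of 10000 to 30000 UMIs. Class I genes are closely related, and reads that match several of them may be dropped or misassigned. Of the 90-base windows in the last 500 bases of their annotated transcripts, 9.49% for H2-Q4 and 13.4% for H2-T23 also occurred in another gene, against 0.151% for H2-K1 and 0 for H2-D1 and B2m.

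**Figure D2:**
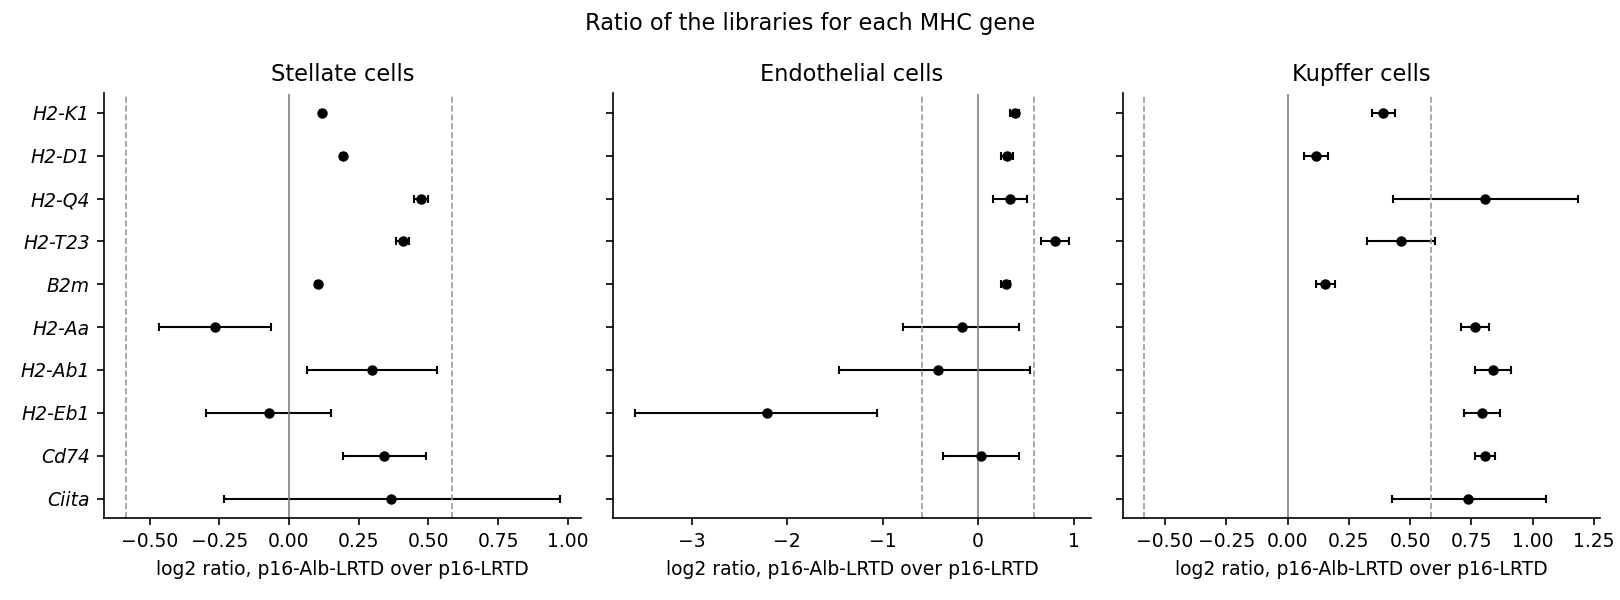
log2 ratio of p16-Alb-LRTD over p16-LRTD for each gene, with exact 95% counting intervals. The solid line marks equal levels and the dashed lines 1.5-fold, and each panel has its own horizontal scale. All class I ratios lie right of the solid line, and the 5 class II ratios of Kupffer cells lie past the dashed line, from 0.74 to 0.84.

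Stellate cells of the libraries also differed in collagen RNA, at 8353 and 2851 CPM summed over Col1a1, Col1a2 and Col3a1, so class I genes were compared at like collagen levels. Stellate cells of both libraries were split at the quartiles of their collagen share. The top quartile held 36.8% and 11.0% of the stellate cells and had the lowest summed class I level, 7070 and 7369 CPM. From the lowest to the highest quartile the class I ratio was 1.10, 1.05, 0.980 and 1.04, and the direction was therefore turned in the third quartile. With equal shares of the quartiles the summed log2 ratio was 0.061 in place of 0.15. For H2-K1 the quartile ratios were 1.08, 1.01, 0.943 and 1.01. H2-D1 and B2m were at 0.990 and 0.977 in the third quartile and above 1 in the others. H2-Q4, in contrast, was higher in p16-Alb-LRTD in every quartile, by 1.23, 1.26, 1.26 and 1.31, and H2-T23 by 1.44, 1.26, 1.19 and 1.18. Collagen levels were part of neither the gate nor the gene choice.

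**Figure D3:**
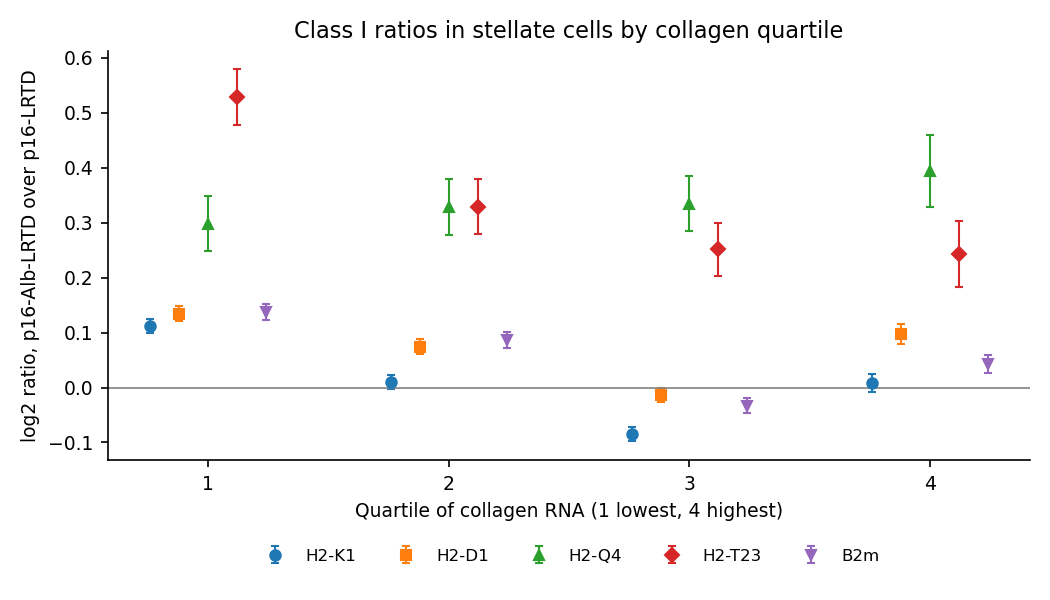
log2 ratio of p16-Alb-LRTD over p16-LRTD for the class I genes in stellate cells, by quartile of collagen RNA, with exact 95% counting intervals. H2-Q4 and H2-T23 lie between 0.24 and 0.53 in every quartile, while H2-K1 goes from 0.11 in the first to -0.09 in the third.

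Per cell, after each cell had been thinned to 5000 UMIs, stellate cells held a median of 41 and 44 class I UMIs, endothelial cells 17 and 23, and Kupffer cells 23 and 26. No cell of these classes was without a class I UMI. H2-Q4 was seen in 54.8% (Clopper-Pearson 95% interval 53.7 to 55.9) and 64.9% (63.8 to 66.1) of stellate cells, and H2-T23 in 56.3% (55.2 to 57.4) and 64.5% (63.3 to 65.6). In endothelial cells the share with H2-T23 was 45.9% (41.1 to 50.8) and 62.2% (56.3 to 67.9). Without thinning, H2-Q4 was seen in 89.3% and 95.1% and H2-T23 in 89.8% and 93.0% of stellate cells, and H2-T23 in 74.0% and 87.6% of endothelial cells.

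Among the 3 gated classes, class II RNA was concentrated in Kupffer cells and was higher there in p16-Alb-LRTD for all 5 genes. Kept barcodes of no gate, described below, held 11.8% and 29.8% of the class II UMIs of all kept barcodes. In Kupffer cells the sum over H2-Aa, H2-Ab1, H2-Eb1 and Cd74 was 3190 CPM (3145 to 3236) and 5550 CPM (5481 to 5620), a ratio of 1.74 (1.71 to 1.77). H2-Aa, the alpha chain of the I-A molecule, was at 746.0 and 1268 CPM, a ratio of 1.70 (1.63 to 1.77). H2-Ab1, its beta chain, was at 438.2 and 783.8 CPM (1.79, 1.70 to 1.88). H2-Eb1, the beta chain of the I-E molecule, was at 453.3 and 784.9 CPM (1.73, 1.65 to 1.82). The RNAs of the 3 chains therefore stood in nearly the same ratio between the libraries, which gives no measure of class II protein at the surface. Cd74, which fills the peptide groove during assembly, was at 1553 and 2714 CPM (1.75, 1.70 to 1.80). Ciita, the transactivator on which class II transcription depends, had 153 and 192 UMIs, at 25.7 and 42.9 CPM (1.67, 1.34 to 2.08). Kupffer cells of p16-Alb-LRTD were deeper, and in cells of 10000 to 30000 UMIs the log2 ratio of Ciita was 0.092 (-0.35 to 0.53), while that of the class II sum was 0.83. With H2-Q4, 6 of the 10 members were over 1.5-fold higher in Kupffer cells, where 5.21% of all 9514 genes tested were, and none was over 1.5-fold lower, where 6.83% were. In cells of 10000 to 30000 UMIs 4 members were over 1.5-fold higher, without Ciita and H2-Q4, and the share of all genes was not computed there. Over the full class Cd74 stood at the 97.2 percentile of the 9514 genes by its ratio.

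The Kupffer result was followed into the cells. In cells thinned to 5000 UMIs the median was 9 and 15 class II UMIs, and the quartiles were 2.25 to 20 and 5 to 38. At least 10 class II UMIs were found in 47.1% (41.1 to 53.2) and 61.6% (54.0 to 68.8) of the cells, and at least 50 in 9.71% and 18.1%. Cells with 0 class II UMIs made up 12.2% (8.62 to 16.7) and 7.91% (4.39 to 12.9), shares whose intervals overlap. Cells with a Cd74 UMI were 82.4% (77.4 to 86.7) and 88.7% (83.1 to 93.0) of Kupffer cells, again with overlapping intervals, against 1.19% and 1.80% of stellate cells. Without thinning the Cd74 shares were 91.5% and 94.9% of Kupffer cells and 3.38% and 6.19% of stellate cells. Shares of the other class II members were lower, also with overlapping intervals. H2-Aa was seen in 67.3% (61.4 to 72.75) and 72.9% (65.7 to 79.3) of Kupffer cells, and H2-Eb1 in 56.5% (50.4 to 62.4) and 64.4% (56.9 to 71.45). H2-Ab1 was seen in 54.7% (48.6 to 60.6) and 67.8% (60.4 to 74.6) of Kupffer cells, with intervals that overlap at their ends, and Ciita in 7.19% (4.45 to 10.9) and 12.4% (7.96 to 18.2). Without thinning these shares were 78.4% and 83.1% for H2-Ab1 and 24.4% and 35.4% for Ciita.

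**Figure D4:**
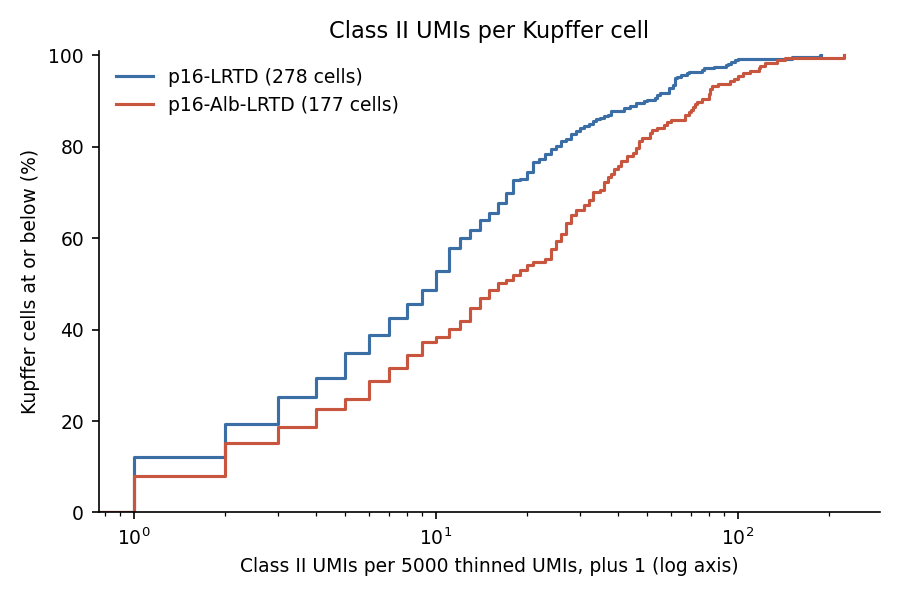
Cumulative share of Kupffer cells (vertical axis, percent) by class II UMIs per cell plus 1 (log axis), after thinning to 5000 UMIs, for 278 p16-LRTD and 177 p16-Alb-LRTD cells. The p16-Alb-LRTD curve runs to the right, with a median of 15 UMIs against 9.

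Genes of other cell types were read in the same Kupffer cells. The 9 dendritic cell markers summed to 132.2 and 97.9 CPM, and Flt3 and Siglech were at 0 UMIs in both. The 6 B cell markers summed to 13.1 and 8.94 CPM, with Ms4a1, Ighm and Pax5 among those at 0 in both. The 7 monocyte markers summed to 979.0 and 776.8 CPM. The 3 sums were thus lower in p16-Alb-LRTD, but members went both ways. Of the 3 dendritic markers with at least 5 CPM on average, Itgax was at 52.8 and 16.8 CPM (0.317), Clec9a at 68.6 and 60.4 CPM (0.880) and Clec10a at 6.73 and 14.5 CPM (2.16). Of the 5 such monocyte list members, 2 were over 1.5-fold lower, the macrophage genes Trem2 (0.401) and Spp1 (0.452), and 2 higher, Plac8 (1.83) and Chil3 (7.80). Endothelial markers were higher in sum where class II was, at 476.0 and 702.2 CPM for the 7 that the gates did not use and 111.5 and 141.1 CPM for the 3 gate genes. Among the former Pecam1, which leukocytes also express, was at 62.7 and 125.4 CPM and Cdh5 at 361.0 and 530.3 CPM, while Lyve1 was at 22.7 and 5.81 CPM. The stellate list was at 365.5 and 331.5 CPM and the hepatocyte list at 30.8 and 22.4 CPM. The part of these markers in the class II result was not tested. Only 10 and 3 cells reached the gate through Csf1r, and without Csf1r in the gate the class II ratio was 1.81 (1.77 to 1.84) in 273 and 175 cells. When cells with 2 or more UMIs per 10000 of another gate's genes were left out, 107 and 74 Kupffer cells remained. The class II log2 ratio was then 0.54 in place of 0.80, and that of H2-Eb1 was 0.36 in place of 0.79. Only 2 members, H2-Q4 and Cd74, were still past 1.5-fold, and the share of all genes was not computed for those cells.

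In stellate cells class II RNA was scarce, and its comparison rested on few barcodes. The class II sum was 12.96 and 14.07 CPM, a ratio of 1.09 (1.02 to 1.16). Of the 1849 UMIs in p16-LRTD stellate cells, 934 came from 1 barcode. Without the richest barcode of each library the sum was 6.42 and 13.2 CPM, a log2 ratio of 1.04. H2-Aa turned with it, from 3.38 and 2.81 CPM, a log2 ratio of -0.26, to a log2 ratio of 0.99. Cd74 was at 4.97 and 6.30 CPM (1.27, 1.14 to 1.40), H2-Ab1 at 2.08 and 2.56 CPM, H2-Eb1 at 2.53 and 2.41 CPM and Ciita at 0.322 and 0.416 CPM on 46 and 52 UMIs. After thinning, 2.57% and 4.10% of stellate cells held any class II UMI. C1qa, a macrophage gene, was seen in 3.29% and 2.72% of the same cells (9.81% and 9.33% without thinning), and no single class II gene exceeded 1.80%. The ratio of class II to C1q UMIs was 0.582 and 0.848 in stellate cells and 0.347 and 0.512 in Kupffer cells. These shares were not read as class II expression by stellate cells, and the source of the UMIs was not tested. The 37 and 70 stellate cells with 3 or more class II UMIs held 65.3% and 51.4% of these UMIs. They also held more macrophage RNA than the other stellate cells, with C1q at 671.9 and 128.1 CPM against 18.3 and 15.2 CPM and Lyz2 at 774.4 and 57.2 CPM against 24.6 and 16.1 CPM. B cell markers in them were at 6.99 and 44.9 CPM, against 0.374 and 0.421 CPM.

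In endothelial cells class II RNA also rested on few barcodes. The sum was 45.7 and 37.4 CPM, a ratio of 0.819 whose interval (0.667 to 1.003) includes 1. In each library 3 cells held most class II UMIs, 92.2% in p16-LRTD and 84.6% in p16-Alb-LRTD, and the 3 of p16-LRTD carried B cell markers at 2565 CPM. The 3 of p16-Alb-LRTD carried dendritic cell markers at 1094 CPM, against 404.4 CPM in the other endothelial cells, the Kupffer gate genes at 294.0 CPM, against 18.4 CPM, and B cell markers at 114.3 CPM. Across the endothelial class, B cell markers were at 24.4 and 2.01 CPM. H2-Eb1 had 50 and 7 UMIs (0.216, 0.0827 to 0.479) and stands on those cells. Cd74 was at 22.1 and 22.6 CPM, H2-Aa at 10.7 and 9.54 CPM and H2-Ab1 at 4.71 and 3.52 CPM. Ciita had 4 UMIs in p16-LRTD and 0 of 3983226 in p16-Alb-LRTD, where a count of 0 allows up to 0.753 CPM, taken as 3 counts of that total. The direction of the sum changed with the gate. With thresholds 1.5 times as high its log2 ratio was 2.09, and with 1 barcode added by taking Csf1r out of the Kupffer gate it was 2.28.

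**Figure D5:**
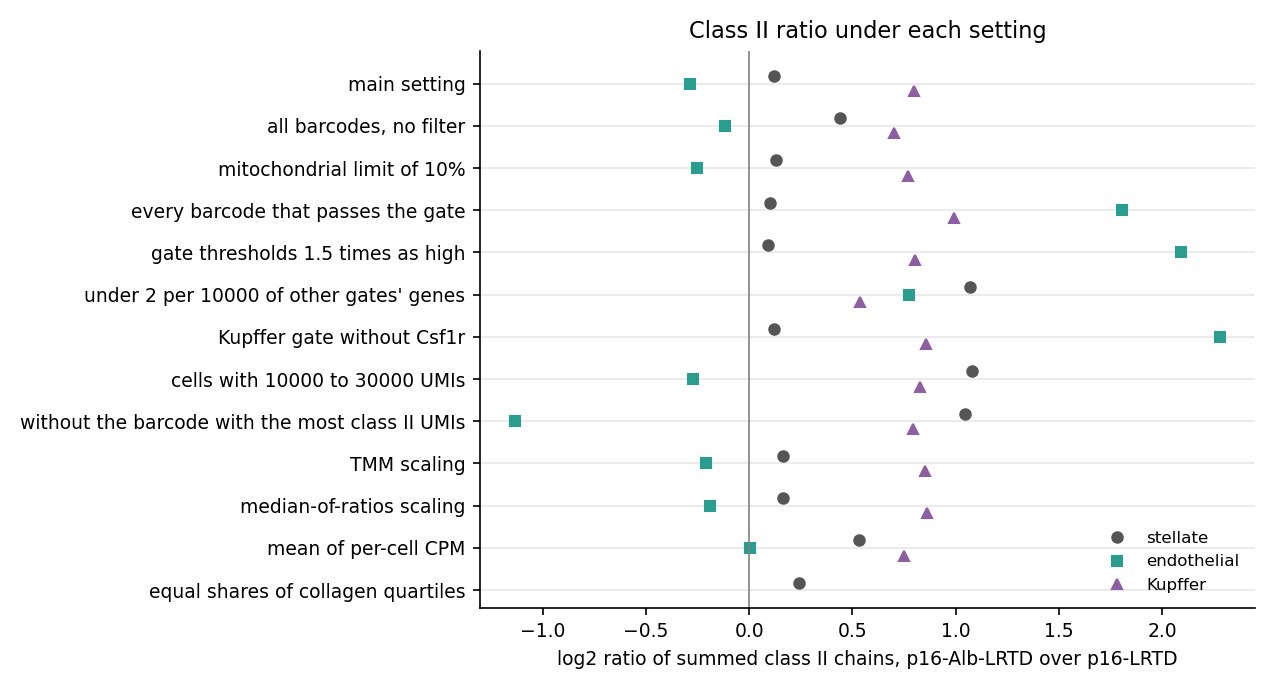
log2 ratio of summed class II chains, p16-Alb-LRTD over p16-LRTD, in each cell class (markers) under the main setting and each alternative (rows). Kupffer values stay between 0.54 and 0.99, stellate values reach 1.08, and endothelial values range from -1.13 to 2.28.

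The partner genes of class I presentation stayed within 1.5-fold in stellate cells, as most genes did. Of 14 genes for peptide generation, transport and loading, none passed 1.5-fold there, where 3.03% of all genes were higher and 3.05% lower. In endothelial cells 2 were higher and in Kupffer cells 3, against 6.44% and 5.21% of all genes. Median log2 ratios were 0.01, 0.10 and 0.31 in stellate, endothelial and Kupffer cells, against -0.05, -0.10 and -0.06 over all genes. Nlrc5, the class I transactivator, led in stellate cells at 31.9 and 42.6 CPM (1.34, 1.29 to 1.39) and in Kupffer cells at 24.1 and 45.8 CPM (1.91, 1.53 to 2.38). Tapbpl, a peptide editor, was second in stellate cells at 10.5 and 13.6 CPM (1.29) and led in endothelial cells at 9.91 and 17.6 CPM (1.77, 1.24 to 2.54). At the low end were the immunoproteasome subunit Psmb9 (0.906) and the peptide-trimming Erap1 (0.932) in stellate cells, Psme2 (0.900) in endothelial cells and the chaperone Canx (0.943) in Kupffer cells.

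Other class I genes gave 1 of 7 higher in stellate, 2 of 8 in endothelial and 3 of 9 in Kupffer cells, against 3.03%, 6.44% and 5.21% of all genes. The stellate call was H2-Q6, just past the 1.5-fold limit. It was at 106.4 and 159.9 CPM in stellate cells (1.502, 1.47 to 1.53) and at 6.56 and 18.8 CPM in Kupffer cells (2.86, 1.94 to 4.30), although 26.9% of its 3' windows recur in other genes, among them H2-Q7. H2-T22 followed in stellate cells (1.13), with 26.4% of its windows recurring. H2-T24 was 2.57-fold higher in endothelial cells (1.86 to 3.58). Lowest were the neonatal Fc receptor Fcgrt (0.824) and the metabolite-presenting Mr1 (0.833) in stellate cells, and Mr1 in endothelial (0.858) and Kupffer cells (0.728).

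Class II processing genes differed less in Kupffer cells than the chains, of which all were over 1.5-fold higher. Among them 1 of 10 was over 1.5-fold higher, against 5.21% of all genes, and the median log2 ratio was 0.24. That gene was March1, a ubiquitin ligase that removes class II from the surface, at 225.7 and 357.5 CPM (1.58, 1.47 to 1.70). The protease Ctsl was lowest there, at 664.7 and 468.8 CPM (0.705), and highest in endothelial cells, at 903.3 and 1313 CPM (1.45). Cathepsin S (Ctss), which degrades the invariant chain, was the lowest in stellate cells (0.518, 0.467 to 0.574) and in endothelial cells (0.794). The Kupffer marker list was also lower there, at 55.6 and 37.8 CPM in stellate and 170.8 and 112.7 CPM in endothelial cells. C1q was at 22.3 and 16.6 CPM in stellate cells but at 52.2 and 53.2 CPM in endothelial cells. The part of macrophage RNA in the Ctss ratios was not tested. In stellate cells Rfx5, a subunit of the X box binding complex, was at 0.759 and Rfxap, another subunit, at 1.12, the only ratio above 1 of the 7 measured. The next was the ubiquitin ligase March8 at 0.944.

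Among costimulatory genes, 2 of 2 in stellate and 5 of 6 in Kupffer cells were over 1.5-fold higher, against 3.03% and 5.21% of all genes, while 2 of 4 were over 1.5-fold lower in endothelial cells, where 13.5% of all genes were. Icam1, an adhesion molecule for T cells, was at 42.0 and 68.8 CPM in stellate cells (1.64, 1.58 to 1.69) and 71.5 and 160.5 CPM in Kupffer cells (2.25, 1.99 to 2.54). Cd274, which encodes the inhibitory ligand PD-L1, was at 6.44 and 10.9 CPM in stellate cells (1.69, 1.55 to 1.84) and 1.43-fold higher in endothelial cells. Cd86, a ligand of CD28, was the lowest in Kupffer cells, at 648.9 and 885.3 CPM (1.36, 1.30 to 1.43). Icosl was the lowest in endothelial cells (0.439, 0.263 to 0.704).

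Interferon-inducible GTPases and genes typical of type I interferon were mostly higher in p16-Alb-LRTD in all 3 classes, with larger medians than the class I genes. Of the interferon-inducible GTPases, 10 of 11 in stellate, 8 of 10 in endothelial and 9 of 10 in Kupffer cells were over 1.5-fold higher, against 3.03%, 6.44% and 5.21% of all genes, with median log2 ratios of 0.87, 0.84 and 1.13, where the 5 class I genes had medians of 0.19, 0.33 and 0.39. Tgtp2 (2.49, 2.33 to 2.65) and Igtp (2.10, 2.01 to 2.19) led in stellate cells, Gbp3 (2.67, 2.07 to 3.47) in endothelial cells and Tgtp2 (6.78, 3.40 to 14.97) in Kupffer cells, the last from 1.68 to 11.4 CPM. The lowest were Gbp2 (1.34) and Gbp7 (1.57) in stellate, Gbp5 (1.45) in endothelial and Irgm2 (1.33) in Kupffer cells. Of 12 genes typical of type I interferon, 10 of 11, 8 of 11 and 12 of 12 were higher, with medians of 1.05, 1.05 and 1.55. Rsad2, an antiviral enzyme, was at 17.0 and 57.0 CPM in stellate cells (3.36, 3.21 to 3.52) and 53.8 and 182.5 CPM in endothelial cells (3.39). Ifi44 was 2.84-fold higher in stellate cells and Ifit1 4.52-fold in Kupffer cells (3.39 to 6.11), whereas the lowest were Ifit2 (1.14) and Bst2 (1.64) in stellate cells and Bst2 in endothelial (0.901) and Kupffer cells (1.62). In the interferon signalling list 5, 2 and 4 of 14 were higher, with medians of 0.34, 0.065 and 0.31, and the endothelial median was below that of the class I genes. Stat2 (1.72, 1.67 to 1.77) and Irf2 (1.63, 1.60 to 1.67) led in stellate cells, and Socs1, a feedback inhibitor, led in endothelial (1.93, 1.58 to 2.36) and Kupffer cells (3.37, 1.81 to 6.59). At the low end were Jak2 (0.865) and Ifnar2 (0.922) in stellate, Irf8 (0.681) in endothelial and Ifngr2 (0.889) in Kupffer cells.

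The genes most like B2m and Cd74 over the 6 class-by-library levels were found by the distance of centred log2(CPM + 1) values. Nearest to B2m were Phlpp2 (distance 0.170), Nucb2 (0.171), Hspa13 (0.198), D730003I15Rik (0.199) and Cask (0.223). Nearest to Cd74 were the leukocyte genes Ly86 (0.520), Rbm47 (0.572), Cd52 (0.602), Mir142hg (0.624) and Ptprc (0.718). Ptprc was at 634.1 and 737.0 CPM in Kupffer cells and at 1.06 and 1.28 CPM in stellate cells, so that these genes share with Cd74 mainly their place in Kupffer cells.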

How the data were processed

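The deposited matrices hold whole-number UMI counts of each gene in each barcode, which the authors obtained with Cell Ranger 7.0.1 on mm10 from 3' v3.1 libraries. These counts register only the 3' end of a transcript, and reads shared by near-identical genes may be lost. The genes and lists were chosen with earlier results of these data known, and support nothing by their choice.

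Following the study's limits, barcodes with over 5% mitochondrial UMIs, under 2000 or over 7000 genes, or over 50000 UMIs were left out. Barcodes passing 1 gate formed a class, and those passing several were left out. No doublet caller was run. Counts were summed per class and library and scaled to CPM. Ratios and levels have exact 95% conditional and Poisson intervals (Python 3.11.15, scipy 1.17.1). A gene past 1.5-fold with at least 5 CPM on average counts as higher or lower. Cells were thinned to 5000 UMIs for shares, leaving out 16 and 7 stellate, 12 and 0 endothelial and 5 and 1 Kupffer cells. The calculation of ratios and intervals was checked on simulated Poisson counts, which hold no spread between cells and so cannot test for it. Scaling alternatives used edgeR 4.0.16 for TMM factors.

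Named were all 10 genes, from each list the 2 highest and 2 lowest ratios in stellate cells and the highest and lowest in the other classes (among genes with at least 5 CPM on average), and the 5 genes nearest to B2m and to Cd74. H2-T10, H2-K2, H2-Bl and Ifi30 were not analysed here. Gene coordinates are from GENCODE vM21 and promoters from RefSeq, both on GRCm38.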

Additional observations from a re-analysis of the deposited data

Results flagged for a closer look

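H2-Aa was higher in p16-Alb-LRTD Kupffer cells (log2 ratio 0.77) and lower in its stellate cells (-0.26), with counting intervals on opposite sides of 0. The difference between the classes was not tested, and without the barcode richest in class II UMIs of each library the stellate value was 0.99. H2-Eb1 was higher in Kupffer cells (0.79) and lower in endothelial cells (-2.21) in the same way, also untested, on 50 and 7 endothelial UMIs. The endothelial value turned to 2.05 with every barcode of the gate, 2.29 with higher thresholds and 2.33 without Csf1r in the Kupffer gate.

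Kept barcodes that passed no gate took part in no comparison, and they held much class II RNA. The class II chains were at 682.2 CPM in 194 such p16-LRTD barcodes and at 4722 CPM in 113 of p16-Alb-LRTD, which held 11.8% and 29.8% of the class II UMIs of all kept barcodes. They held markers of several cell types, with the stellate list at 7126 and 5714 CPM, the Kupffer list at 4960 and 5272 CPM, the monocyte list at 2324 and 2504 CPM and the hepatocyte list at 1179 and 500.6 CPM. In them the dendritic cell markers summed to 82.1 and 309.6 CPM, with 5 and 93 UMIs of Flt3, a receptor of dendritic cells and their precursors, and 71 and 177 UMIs of Siglech, a plasmacytoid dendritic cell gene. The dendritic gene Itgax was at 21.3 and 22.5 CPM. B cell markers were at 16.3 and 42.0 CPM there, T and NK cell markers at 59.8 and 179.8 CPM and Ciita at 6.27 and 15.01 CPM. The class I sum was 3399 and 3849 CPM. What these barcodes are was not tested.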

How the results depend on the processing

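With 1 library per genotype, all values carry counting error only, and neither mice nor preparations can be told apart from genotype. No paired analysis was possible because there was 1 library for each genotype. Depth limits endothelial and stellate class II and Kupffer H2-Q4, which rest on few UMIs or barcodes.

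The summed class I log2 ratio kept its direction in every class and setting. With no barcode filter it was 0.16 in stellate and 0.20 in Kupffer cells, with TMM scaling 0.20, 0.42 and 0.28 in stellate, endothelial and Kupffer cells, and with median-of-ratios scaling 0.20, 0.44 and 0.29. With every barcode of a gate it was 0.42 in endothelial and 0.17 in Kupffer cells, and with under 2 per 10000 of other gates' genes 0.25 and 0.14. In cells of 10000 to 30000 UMIs it was 0.14 in stellate and 0.27 in Kupffer cells, with the mean of per-cell CPM 0.13 in stellate cells, and with equal collagen quartile shares, chosen after seeing the data, 0.061. For single class I genes, 169 of 170 alternative values were above 0, the exception being Kupffer H2-Q4 at -0.0019 with every barcode of the gate. With under 2 per 10000 of other gates' genes, however, Kupffer H2-D1, H2-T23 and B2m were at 0.011, 0.076 and 0.055, with intervals that include 0.

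The Kupffer class II sum stayed above 0. It was 0.70 with no filter, 0.77 with a mitochondrial limit of 10%, 0.99 with every barcode of the gate, 0.54 with under 2 per 10000 of other gates' genes, 0.85 without Csf1r, 0.83 at 10000 to 30000 UMIs, 0.85 and 0.86 with TMM and median-of-ratios scaling and 0.75 with per-cell means. All 55 alternative values of single class II genes in Kupffer cells were above 0, the lowest 0.09 for Ciita at 10000 to 30000 UMIs. The count of members past 1.5-fold moved from 6 to 2 with under 2 per 10000 of other gates' genes and to 4 at 10000 to 30000 UMIs. The share of all genes past 1.5-fold was not computed for these smaller sets of cells.

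The stellate class II sum was 0.44 with no filter, 1.07 with under 2 per 10000 of other gates' genes, 1.08 at 10000 to 30000 UMIs, 0.53 with per-cell means, 0.24 with equal quartile shares and 1.04 without the richest barcode, the last 2 chosen after seeing the data. Stellate H2-Aa turned to 0.053, 0.99, 1.07, 0.29 and 0.99 with no filter, under 2 per 10000 of other gates' genes, 10000 to 30000 UMIs, per-cell means and without the richest barcode. The stellate count was 1 with no filter, a setting for which the share of all genes was not computed.

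The endothelial class II sum was 1.80 with every barcode of the gate, 2.09 with higher thresholds, 0.77 with under 2 per 10000 of other gates' genes, 2.28 without Csf1r in the Kupffer gate, -1.13 without the richest barcode (both chosen after seeing the data) and 0.0049 with per-cell means. Endothelial H2-Eb1 turned to 2.05, 2.29 and 2.33 with every barcode, higher thresholds and without Csf1r. The endothelial count was 5 with every barcode, higher thresholds, under 2 per 10000 of other gates' genes or without Csf1r, and 2 at 10000 to 30000 UMIs, without the richest barcode or with a minimum of 1 CPM. These counts take both directions together, and the share of all genes past 1.5-fold was not computed for these settings. Apart from the barcodes left out or added, the cause of these moves was not tested. Of 120 shares of cells recomputed at 3000 UMIs or without thinning, 80 left the interval of the value at 5000.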
